A study of Mus musculus with 64 samples.

Results

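Splicing factor genes were followed here as 5 families of the machinery that removes introns from pre-mRNA: the SR proteins (Srsf genes), the hnRNP proteins (Hnrnp genes), the core and particle-specific proteins of the small nuclear ribonucleoproteins (Snrp genes, called snRNP below), the SF3A and SF3B subunits of the U2 particle (Sf3 genes) and the pre-mRNA processing factors (Prpf genes). Members were all genes whose symbol begins with one of these family names and whose mean exceeded 1 CPM in at least 1 tissue. Of 36332 gene IDs, 66 carried such a name, 1 of them as a named pseudogene (left out), and 64 passed: 10 SR, 20 hnRNP, 12 snRNP, 9 SF3 and 13 PRPF genes. The threshold removed Srsf12 alone, at 0.152 CPM in adipose tissue, its highest tissue mean, and the member nearest to it was Snrpf, at 10.4 CPM in adipose tissue. Every member passed the filter on low values in every tissue, so no member dropped out of any comparison.

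Splicing is carried out by the spliceosome, which assembles on each intron from snRNPs, each a small nuclear RNA on a ring of Sm proteins, and from the factors they recruit. SR proteins mostly bind exons and favour their inclusion, hnRNP proteins coat nascent RNA and often oppose inclusion, SF3A and SF3B hold the U2 particle at the branch point, and many PRPF proteins belong to the U4/U6.U5 particle or to the activation steps that follow. MYC is a transcription factor that pairs with MAX on E-box sequences, and genes of the splicing machinery are among those it is known for in growing cells.

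The 64 libraries were mRNA sequencing libraries of omental adipose tissue, liver and skeletal muscle in 12 groups, made by 3 tissues, 2 genotypes and 2 ages (5 and 20 months). KO mice came from a cross of B6.129 mice with the allele Gt(ROSA)26Sortm1(cre/ERT2)Tyj, which makes a tamoxifen-activated Cre from the broadly active Rosa26 locus, with B6.129-B6.129S6-Myctm2Fwa/Mmjax, which carries a Myc gene that Cre can excise. WT mice were C57/B6 with no Cre named, so the loss of Myc, the Cre and the strain background cannot be told apart. Both genotypes are labelled as injected with 75 mg/kg tamoxifen on 5 days at weaning, once they weighed 15 g. Each 5-month group held 6 libraries, except 4 for KO muscle, and each 20-month group held 5. The older libraries carry an 18 in their codes, whereas their age labels give 20 months.

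Depth was 15.4 to 28.5 M reads on genes per library, and members took 0.304% to 0.962% of them. Myc, the targeted gene, lay lower in KO than in WT without overlap in liver at both ages (1.16 to 4.04 against 5.46 to 33.7 CPM at 5 months) and in adipose tissue at 5 months (2.87 to 10.5 against 11.2 to 22.8 CPM). The groups overlapped in adipose tissue at 20 months and in muscle at both ages (5.00 to 17.1 against 6.15 to 81.3 CPM at 5 months), and reads of the part of the gene that is not excised count here too. Adipoq, the adipocyte hormone, was at 609.8 to 2951 CPM in adipose libraries and at most 0.205 CPM in liver. 12 of the 5-month libraries, 2 in each group, had Xist and no Y-chromosome transcripts, and no 20-month library did. Young adipose libraries K5F4284, K5F5218, K5F5248 and W5F5299 and the muscle library W5S5299 held epididymis transcripts, over 10 CPM in the sum of 10 listed markers. The signal came from Crisp1, Adam7 and Lcn5, at up to 5461, 652 and 144 CPM in adipose tissue. The other listed markers reached at most 0.948 CPM there, so the name rests on these genes. Counts of called members in ageing and between tissues are also given without the Xist libraries, and those of adipose ageing without the epididymis libraries. In bulk tissue, fewer cells of a type and less RNA per cell cannot be told apart, which holds for every value below.

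The unit is the deposited CPM, a read signal with a scaling factor per library, and fold changes are differences of log2(CPM + 1) with their standard error (SE). A member was called changed when the adjusted p of limma, over all genes of the fit, was under 0.05. Levels of different genes are compared per kilobase of mRNA.

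**Figure D1:**
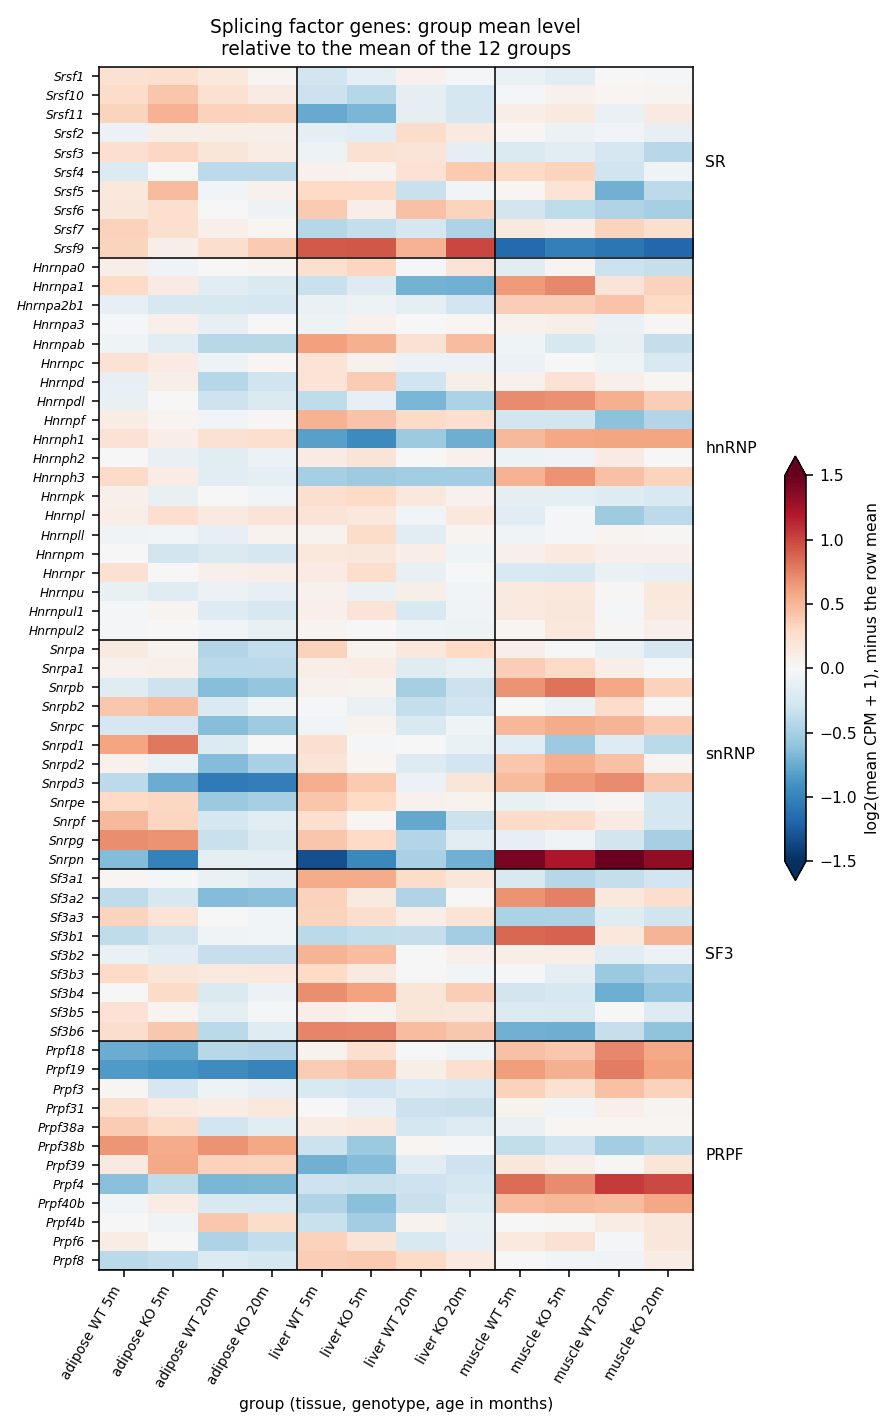
Rows are members by family, columns are the 12 groups, and colour is the group's log2(mean CPM + 1) minus the mean of that row, blue for lower and red for higher. Snrpn is high in the 4 muscle groups, Srsf9 is low there, and most snRNP rows turn bluer from 5 to 20 months in adipose tissue.

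Levels per kilobase of mRNA were highest in the hnRNP family, the abundant coat of nuclear RNA. Hnrnpa2b1, the member with the highest mean in that family, had 188, 198 and 282 CPM per kilobase in adipose tissue, liver and muscle. Srsf5, an SR protein, led its family with 136, 127 and 104.5 CPM per kilobase, and Snrpb, which encodes the SmB ring protein, led the snRNP genes with 49.5, 59.7 and 100.4. Sf3b1, the large scaffold of SF3B around the branch point, had 29.6, 25.5 and 52.5 CPM per kilobase. Prpf8, the core protein of the U5 particle and the highest PRPF member by mean CPM, had 21.3, 32.8 and 26.6 CPM per kilobase, below Prpf19, the ubiquitin ligase of the activation complex, in liver (35.2) and muscle (44.6) and below Prpf38b, a partner of the activation step, in adipose tissue (23.99). Sf3b2, another SF3B subunit, exceeded Sf3b1 in adipose tissue (31.5) and liver (45.5).

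Members spread more between young libraries than between old ones in adipose tissue and liver of both genotypes, by the median of each family, and not in KO muscle. Each young group included Xist libraries and no old group did, and the adipose libraries with epididymis transcripts were all young. The spread without these libraries is not given here, and their part in it was not tested. The median coefficient of variation of the snRNP genes was 29.1% in WT adipose tissue at 5 months and 7.50% at 20 months, and in WT liver it was 34.4% and 10.7%. In WT muscle the same figure was 20.6% and 17.7%. In KO muscle it was 11.0% and 13.6%, and the SF3 genes there went from 9.58% to 16.8%. The hnRNP genes varied less, with medians of 13.5% and 6.14% in WT adipose tissue at the respective ages.

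Members differed in level between tissues of young WT mice, and the direction of the middle of the list depended on the scaling. With the deposited scaling, 25 of 64 members differed between adipose tissue and liver (12 higher and 13 lower in adipose tissue), where 69.7% of all genes were called (35.7% higher, 34.1% lower). Between adipose tissue and muscle 27 members differed (14 higher, 13 lower), against 68.9% of all genes (38.8% and 30.2%), and between liver and muscle 30 differed (13 higher in liver, 17 lower), against 73.1% (36.4% and 36.7%). With the Xist libraries left out, a setting added after seeing the data, 20, 22 and 27 members were called, beside 64.3%, 64.6% and 68.5% of all genes. Scaled to total reads, the counts were 61 (all higher in adipose tissue), 55 (51 higher in adipose tissue, 4 lower) and 36 (8 higher in liver, 28 lower), where 83.1%, 78.4% and 72.5% of all genes were called. That scaling moved the median of all genes from 0.03 to 0.999, from 0.15 to 0.88 and from -0.01 to -0.21 (log2) in the 3 comparisons, and the median of the members went with it, from -0.07 to 1.06, from 0.00 to 0.85 and from 0.01 to -0.25. Liver RNA was extracted with a different kit from that used for adipose tissue and muscle, per the labels, so kit and tissue cannot be told apart in the comparisons with liver.

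The genes named next kept direction and call under both scalings, except where said, and their calls without the Xist libraries. Snrpn, which encodes the Sm protein SmN and is known from neurons, was at 24.2 to 39.0 CPM in young WT muscle (median 28.6), 3.05 to 12.2 in adipose tissue (median 5.65) and 2.38 to 6.25 in liver (median 2.93). No muscle library overlapped the other tissues, and the log2 differences were -2.18 (SE 0.27) for adipose tissue against muscle and -2.78 (SE 0.27) for liver against muscle (limma adjusted p = 6.11e-07 and 1.37e-08). The Snrpn locus also yields Snurf from the same transcript, and the counting rule that divides such reads is not given in the sources used here. Srsf9, an SR protein, ran the other way: 5.60 to 11.7 CPM in muscle (median 6.22), 17.1 to 26.9 in adipose tissue (median 21.9) and 24.3 to 42.8 in liver (median 31.4). Its log2 differences against muscle were 1.52 (SE 0.18) in adipose tissue and 2.09 (SE 0.18) in liver (adjusted p = 3.33e-07 and 2.16e-09).

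Within the U2 particle the SF3B subunits did not share one tissue order. Sf3b1 was highest in muscle, at 217 to 539 CPM (median 375), against 114 to 188 in liver (median 162), a log2 difference of -1.23 (SE 0.19, adjusted p = 9.30e-06). Sf3b6, the small subunit that touches the branch point adenosine, was lowest in muscle, at 7.49 to 10.7 CPM (median 9.25), against 22.004 to 35.5 in liver (median 26.4) and 13.5 to 26.6 in adipose tissue (median 19.2). The log2 differences were 1.44 (SE 0.16) and 0.96 (SE 0.16), with adjusted p = 7.56e-08 and 1.95e-05. Sf3b4, another SF3B subunit, was also higher in liver than in muscle, at 39.6 ± 13.6 against 19.6 ± 2.73 CPM (SD, n = 6 each), a log2 difference of 0.93 (SE 0.17, adjusted p = 5.77e-05).

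Hnrnph1, which binds G-rich elements, was low in liver, at 41.3 to 53.8 CPM (median 43.5), against 74.6 to 111 in adipose tissue (median 96.5) and 90.4 to 141 in muscle (median 109.5). Its log2 difference was 1.02 (SE 0.13) for adipose tissue against liver and -1.29 (SE 0.13) for liver against muscle (adjusted p = 7.09e-07 and 1.99e-08). Srsf11 and Prpf38b were also higher in adipose tissue than in liver, by 1.07 (SE 0.12) and 0.96 (SE 0.13) on the log2 scale, and Prpf38b exceeded muscle by 1.01 (SE 0.13). None of these pairs of groups overlapped.

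Prpf19 and Prpf4, a U4/U6 protein, were lower in adipose tissue. Prpf19 had adipose levels of 64.1 ± 6.16 CPM, liver levels of 152 ± 28.9 and muscle levels of 180.3 ± 29.6 (SD, n = 6 each), with log2 differences of -1.22 (SE 0.13) and -1.47 (SE 0.13). Prpf4 was at 12.6 ± 1.48 CPM in adipose tissue and 36.6 ± 6.07 in muscle (SD, n = 6 each), a log2 difference of -1.46 (SE 0.12). Against muscle both stayed called when scaled to total reads, at -0.60 for Prpf19 and -0.63 for Prpf4. Against liver the Prpf19 difference shrank to -0.09 (adjusted p = 0.542), and those of Prpf8 (-0.79, SE 0.20) and Snrpd3, an Sm ring protein (-0.88, SE 0.25), turned to 0.34 and 0.23.

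The comparison of KO with WT asked whether removal of Myc shifted these genes, and no member was called in any tissue at either age. The share of all genes called was itself small: 0.105% in adipose tissue at 5 months and 0% at 20 months, 0.0696% and 0.0232% in liver, and 0% and 0.0302% in muscle. In young adipose tissue it was larger in other fits, at 304 genes (2.13%) with DESeq2, none of them a member, and 531 genes (3.72%) without the Xist libraries, 1 of them a member (Prpf39, below). Before adjustment, limma gave p under 0.05 for 4 adipose (6.25%), 2 liver (3.12%) and 1 muscle members (1.56%) at 5 months, where the shares of all genes were 11.8%, 6.94% and 4.10%. At 20 months it did so for 0, 3 (4.69%) and 1 (1.56%), where 2.25%, 5.80% and 13.8% of all genes had such a p. edgeR and DESeq2, run on reads recovered from the table, called 0 members in each of these comparisons. All 64 intervals (95%) of the log2 difference lay within 1 in either direction in every comparison, and 40 to 53 of them lay within 0.5, depending on tissue and age. Each fit estimated a shared spread per gene over all groups of its tissue. SEs, intervals and p-values at 20 months therefore include the spread of the young libraries, and those at 5 months that of the old ones.

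**Figure D2:**
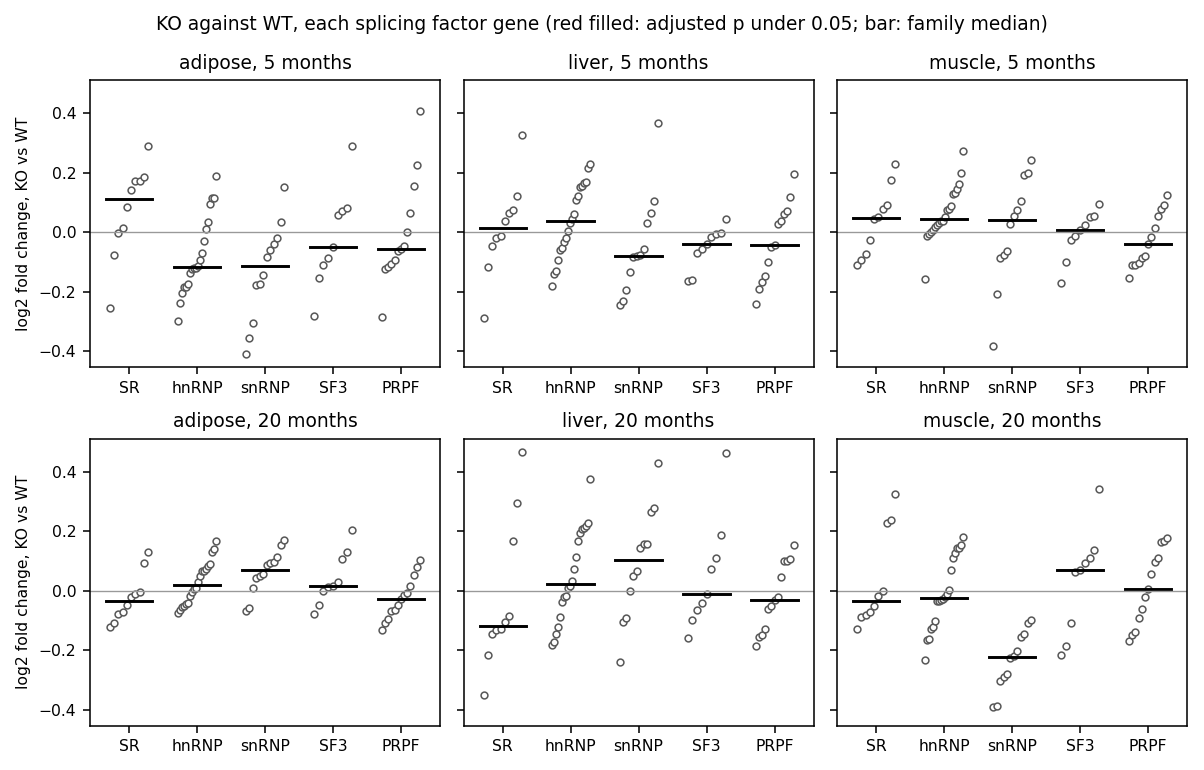
Each point is 1 member, its height the log2 fold change of KO against WT in the tissue and at the age named over the panel, and the bar is the family median. No point is filled, since no member had an adjusted p under 0.05, and all points lie between -0.41 and 0.47.

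The member with the smallest unadjusted p is named for each comparison. In young adipose tissue it was Prpf39, a U1-associated factor: 24.5 to 51.4 CPM in KO (median 40.5) against 23.9 to 37.0 in WT (median 27.2), a log2 difference of 0.41 (SE 0.14, adjusted p = 0.314). Its groups overlapped. Without the Xist libraries the difference was 0.62 (adjusted p = 0.0244), and without K5F5118 alone it was 0.54 (adjusted p = 0.0475), the only calls among the fits run for this gene there. In young liver it was Prpf38b, at 26.8 to 35.6 CPM in KO (median 32.4) against 30.8 to 39.7 in WT (median 38.4), a log2 difference of -0.24 (SE 0.09, adjusted p = 0.572). In young muscle it was Snrpd1, an Sm ring protein, at 5.83, 6.21, 6.97 and 7.97 CPM in KO against 7.09 to 10.5 in WT (median 9.44), a log2 difference of -0.38 (SE 0.13, adjusted p = 0.935).

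At 20 months the members with the smallest unadjusted p were Hnrnpll in adipose tissue, Srsf9 in liver and Srsf11 in muscle. Hnrnpll had 31.5, 33.1, 35.8, 36.0 and 40.4 CPM in KO adipose tissue and 26.7, 31.6, 31.9, 32.2 and 34.3 in WT (log2 difference 0.17, SE 0.13, adjusted p = 1). Srsf9 had 24.03, 36.6, 36.9, 38.2 and 40.7 CPM in KO liver and 22.8, 23.2, 24.1, 25.1 and 29.7 in WT, so that 4 of 5 KO libraries exceeded every WT library and K18L06 did not (0.47, SE 0.15, adjusted p = 0.737). Srsf11 had 78.3, 78.7, 82.6, 90.8 and 109.9 CPM in KO muscle and 59.1, 73.8, 77.9, 81.8 and 82.6 in WT (0.23, SE 0.10, adjusted p = 0.339).

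Of the 64 members, 3 had KO and WT groups that did not overlap, all at 20 months and none called. They are named here after their values were seen. The share of all genes without such overlap is not given here, so the count is not read as a result about the members. Prpf4b had 52.3, 52.7, 54.4, 54.7 and 56.8 CPM in KO liver and 57.5, 58.8, 59.2, 62.8 and 64.6 in WT (-0.16, SE 0.12, limma adjusted p = 0.890). Hnrnpab had 114.9, 118.4, 120.6, 121.8 and 122.7 CPM in KO muscle and 122.7, 133.9, 144.5, 148.5 and 157.1 in WT, so that the groups met (-0.23, SE 0.11, adjusted p = 0.363). Hnrnpdl, a relative of Hnrnpd, had 111.4 to 118.7 CPM in KO muscle and 119.0 to 150.6 in WT (-0.16, SE 0.11, adjusted p = 0.473).

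The family medians of KO against WT ran from -0.22 to 0.11 over the 6 comparisons. In muscle at 20 months all 12 snRNP genes were lower in KO, with a median log2 difference of -0.22, where the median of all genes was -0.03, and none was called. Under the 5 other settings run on all libraries of that comparison, 12 of 12 were lower and the median ran from -0.24 to -0.15. The WT library W18S42 stood apart there: its snRNP genes summed to 478.7 CPM, against 334 to 383 in the other WT libraries, and the hepatocyte markers, 7 genes, to 2809 CPM, against 2.23 to 15.8. Without it 12 of 12 snRNP genes were still lower, with a median of -0.17. Across the whole table, genes with mRNAs of up to 1500 bases were also lower in KO muscle at 20 months. Over all such genes the median was -0.17 and 75.0% were negative. The part of mRNA length in the snRNP value was not tested. The T cell markers, 6 genes, summed to 1.02 to 2.35 CPM in the KO libraries of that comparison and 0.271 to 0.508 in WT, and their part was not tested either. Whether the KO effect differed between the ages was tested as an interaction, in which limma called 0 members per tissue (0% of all genes in each). Unadjusted p was under 0.05 for 0 adipose, 3 liver and 0 muscle members, and edgeR and DESeq2 called 0. The members with the smallest p in that test were Prpf39 in adipose tissue (-0.42, SE 0.21), Snrpf in liver (0.62, SE 0.24) and Snrpd2 in muscle (-0.63, SE 0.34), with adjusted p = 0.998, 0.991 and 0.999.

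Since MYC and MAX bind the E-box letters CACGTG, the promoters of the members were searched for them, from 250 bases before to 50 bases after the start site in RefSeq sequence of GRCm38.p6. The motif reads the same on both strands. It was present in 9 of the 56 members with a promoter entry (16.1%), in 8.09% of 27025 genes with an entry and in 11.0% of the 12772 of these that exceeded 1 CPM in at least 4 libraries. The 9 were 5 hnRNP genes of 18 with an entry, 3 PRPF genes of 11 and 1 snRNP gene of 10, with none in the 10 SR and 7 SF3 genes. The windows around each copy that lies before a start site are shown because they carry the motif of the deleted factor, each 30 bases read 5′ to 3′ on the gene's strand, with the E-box in capitals.
Hnrnpa3 (chr2:75659229-75659258, plus strand): cggatagcacatCACGTGgtgactggcccc
Prpf3 (chr3:95855856-95855885, minus strand): gccttccgtagtCACGTGccgtagggaccg
Hnrnpd (chr5:99978953-99978982, minus strand): gcgctccggagcCACGTGaccgggacgcgc
Hnrnpf (chr6:117907713-117907742, plus strand): cgagcgggcgctCACGTGgcccgaggcgcc
Snrpa, first (chr7:27196327-27196356, minus strand): cctttcccatccCACGTGatagaactcgca
Snrpa, second (chr7:27196286-27196315, minus strand): gctcttgaaggtCACGTGatactggcggaa
Snrpa, at the other start (chr7:27195812-27195841, minus strand): acgcctttcgcgCACGTGgactaatgggaa
Prpf39 (chr12:65036279-65036308, plus strand): ggttgcgcgcgtCACGTGaccgctgcgcct
Prpf40b (chr15:99295038-99295067, plus strand): caggattctgcgCACGTGggggcggggcct
Snrpa, which encodes a protein of the U1 particle, held 3 copies over its 2 annotated promoters. The third lies 69 bases before the second start site. Hnrnpm and Hnrnph2 held the letters only after the start site. Prpf3 also had them 12 bases after a start site. If that start is the end of the annotated gene on its minus strand, this is the copy shown above and not a further one.

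None of the 9 genes with the motif was called in KO against WT, and their 5-month median log2 difference was -0.09 (adipose tissue), 0.00 (liver) and 0.03 (muscle), beside -0.06, -0.02 and 0.03 for all members. At 20 months it was 0.05, 0.03 and 0.00, beside 0.01, 0.00 and -0.04. Over the 6 comparisons their values ran from -0.30 (Hnrnpm in young adipose tissue) to 0.41 (Prpf39 there). Snrpa, with the most copies, was at -0.14, -0.23 and -0.09 in adipose tissue, liver and muscle at 5 months and at 0.05, 0.14 and -0.15 at 20 months, with the interval spanning 0 in each.

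For WT ageing, 20 against 5 months, limma called 4.69% of the members in adipose tissue, beside 10.8% of all genes. The liver shares were 17.2% and 7.19%, and those of muscle 14.1% and 18.6%. The share of members thus exceeded that of all genes only for liver. The family medians below describe each tissue, and families were not compared by a test. In adipose tissue the snRNP genes were lower (median log2 fold change -0.62, 11 of 12 lower), in liver snRNP and hnRNP genes were lower (-0.32 and -0.22) while SR genes were higher (0.21, 8 of 10 higher), and in muscle the SF3 genes were lower (-0.24, 6 of 9 lower). Over all genes the medians were 0.01, -0.01 and 0.03. 23 members were lower in all 3 tissues and 4 were higher in all 3, the former with 7 of 12 snRNP, 5 of 9 SF3 and 9 of 20 hnRNP genes. The share of all genes lower or higher in all 3 tissues is not given here. Of all genes with mRNAs of up to 1500 bases, 77.1% (adipose tissue), 68.9% (liver) and 46.7% (muscle) were negative. Of those over 3000 bases, 30.3%, 40.8% and 45.4% were. 19 members (29.7%) were called in at least 1 tissue, where 31.5% of the 11330 genes tested in all 3 tissues were, and 4 (6.25%) in more than 1, where 4.32% were. The 4 were Snrpf and Snrpg in adipose tissue and liver, Sf3a2 and Sf3b2 in liver and muscle, each lower in both. With the Xist libraries left out, the limma counts were 0, 3 and 0 members, so none was called in more than 1 tissue.

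**Figure D3:**
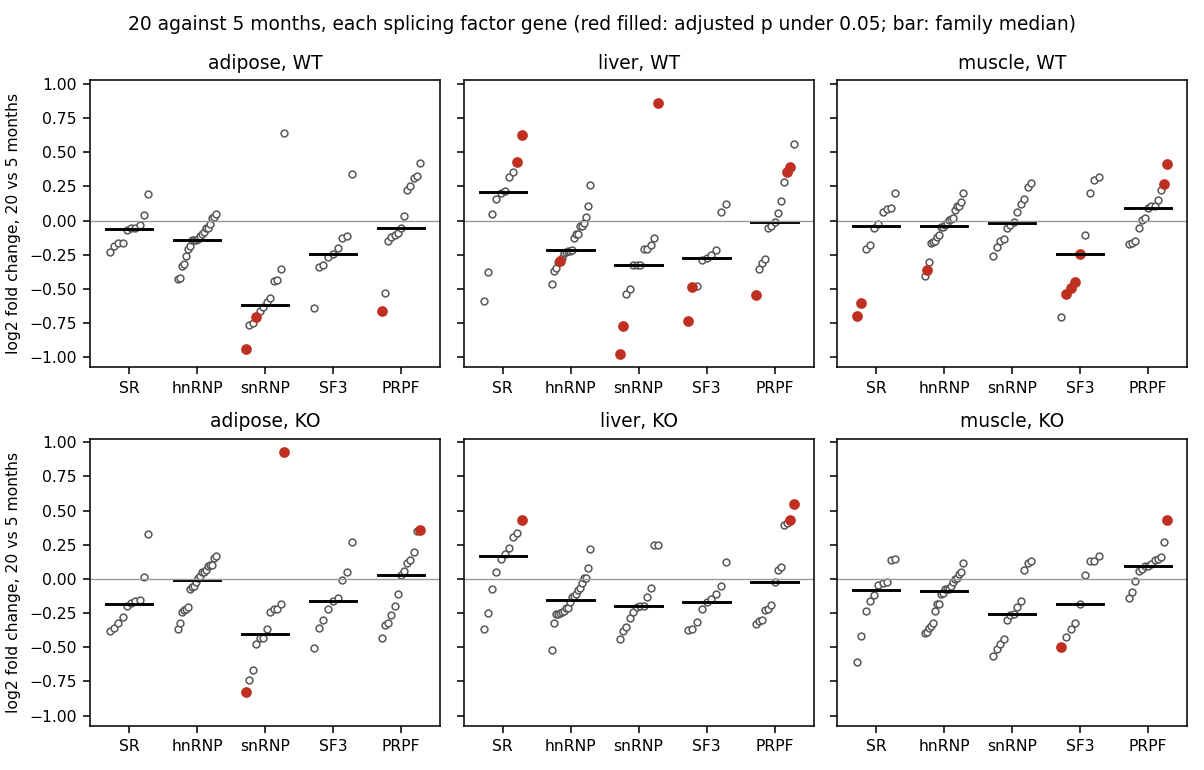
Each point is 1 member, its height the log2 fold change of 20 against 5 months in the tissue and genotype named over the panel. Bars are family medians and red points are members with a limma adjusted p under 0.05, among them Snrpg and Snrpf in WT adipose tissue and liver, and Srsf5 and Srsf4 in WT muscle.

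In WT adipose tissue 3 of 64 members were called, all lower, where 10.8% of all genes were called and 3.36% were called lower. Snrpg, an Sm ring protein, was at 11.0 to 38.8 CPM at 5 months (median 21.4) and at 9.18, 9.54, 10.4, 10.8 and 13.1 CPM at 20 months. Snrpf, another Sm ring protein, went from 7.52 to 18.3 CPM (median 13.3) to 6.63, 6.89, 7.05, 7.63 and 9.45. The old libraries of both genes lay at the low end of the young range and overlapped it, with log2 fold changes of -0.94 (SE 0.27, limma adjusted p = 0.0328) and -0.71 (SE 0.21, adjusted p = 0.0393). Prpf38a, a protein of the activation step, had 11.5 to 18.3 CPM at 5 months (median 16.6) and 7.84, 8.71, 9.70, 11.1 and 11.4 at 20 months. Its groups did not overlap (-0.66, SE 0.18, adjusted p = 0.0234).

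The count in adipose tissue moved with the libraries and tools. Without the Xist libraries 0 members were called (limma), and the values of Snrpg, Snrpf and Prpf38a were -0.65, -0.50 and -0.57, with 15 members at an unadjusted p under 0.05, while 739 of all genes tested were still called (5.17%). Without the libraries with epididymis transcripts 15 members were called, 14 of them lower, beside 24.2% of all genes. edgeR called 8 and DESeq2 13, of which 8 and 12 were lower, beside 11.9% and 18.9% of all genes. Leaving out 1 library at a time gave 0 (5 of 11 fits, W18F22 among them) to 11 members (without W5F5299). The snRNP median stayed negative under every setting, from -0.74 to -0.47, with 11 of 12 genes lower.

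The lower snRNP values came with a pattern of mRNA length in the whole table. Genes with a median mRNA of up to 1500 bases had a median log2 fold change of -0.30 in WT adipose ageing (2430 genes, 77.1% negative), those of over 3000 bases 0.19 (5765 genes, 30.3% negative). The members of up to 1500 bases, which include most snRNP genes, had a median of -0.57 and 13 of 13 were negative, those of over 3000 bases -0.06. In WT liver the same bins gave -0.16 and 0.07 for all genes and -0.33 and -0.03 for members, and in WT muscle 0.02 and 0.04 for all genes and -0.05 and -0.04 for members. Across the 64 members the correlation of fold change with log2 mRNA length was r = 0.66 (adipose tissue), 0.39 (liver) and -0.04 (muscle), a description over genes that share libraries. In WT adipose tissue the T cell markers, 6 genes, also moved with age, at 4.49 to 12.4 CPM in sum at 5 months and 13.8 to 50.01 at 20 months. The part of length, and of these cells, in the member values was not tested.

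**Figure D4:**
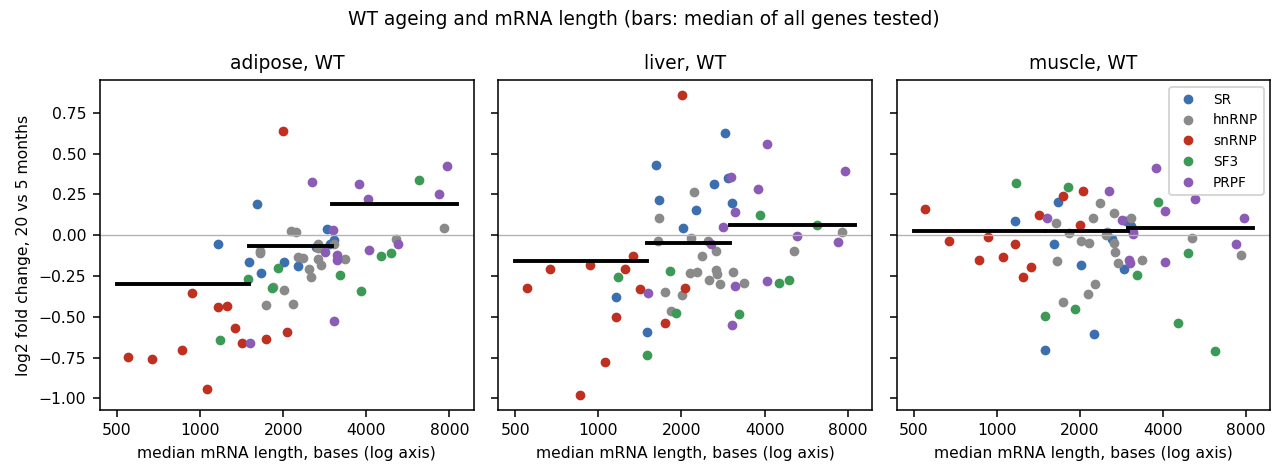
Each point is 1 member, placed by its median mRNA length in bases (log axis) and its log2 fold change of 20 against 5 months in WT, coloured by family. The black bars are medians of all genes tested up to 1500, from 1500 to 3000 and over 3000 bases, and they rise from -0.30 to 0.19 in adipose tissue and stay between 0.02 and 0.04 in muscle.

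In WT liver 11 of 64 members were called, 5 higher and 6 lower, where 7.19% of all genes were called (2.83% higher, 4.36% lower). Srsf11, an SR-related protein, was at 41.05 to 54.9 CPM at 5 months (median 45.6) and at 68.8, 69.6, 71.8, 76.5 and 78.6 in the old livers. The groups did not overlap (log2 fold change 0.62, SE 0.11, limma adjusted p = 0.00212). Srsf2, the SR protein also known as SC35, had 102 to 132 CPM (median 123) and then 148, 149, 158, 173 and 174, again with no overlap (0.43, SE 0.10, adjusted p = 0.0116). Both were called in 11 of 11 fits that left out 1 library, without the Xist libraries and under each other setting run.

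Snrpn rose as well, from 2.38 to 6.25 CPM (median 2.93) to 5.53, 5.69, 6.54, 8.99 and 9.77, with overlap (0.86, SE 0.23, adjusted p = 0.0297). It was not called without the Xist libraries (0.71, adjusted p = 0.111) nor without the filter on low values. The other members called higher, named after their values were seen, were 2 PRPF genes. Prpf38b had 30.8 to 39.7 CPM (median 38.4) and then 43.8, 46.4, 48.3, 49.4 and 52.6. Prpf4b, a kinase of the tri-snRNP, had 37.9 to 56.9 CPM (median 46.3) and then 57.5, 58.8, 59.2, 62.8 and 64.6. Neither pair of groups overlapped, with log2 fold changes of 0.36 (SE 0.10) and 0.39 (SE 0.11). Neither was called without the Xist libraries (0.38 and 0.34, limma adjusted p = 0.0727 and 0.101).

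**Figure D5:**
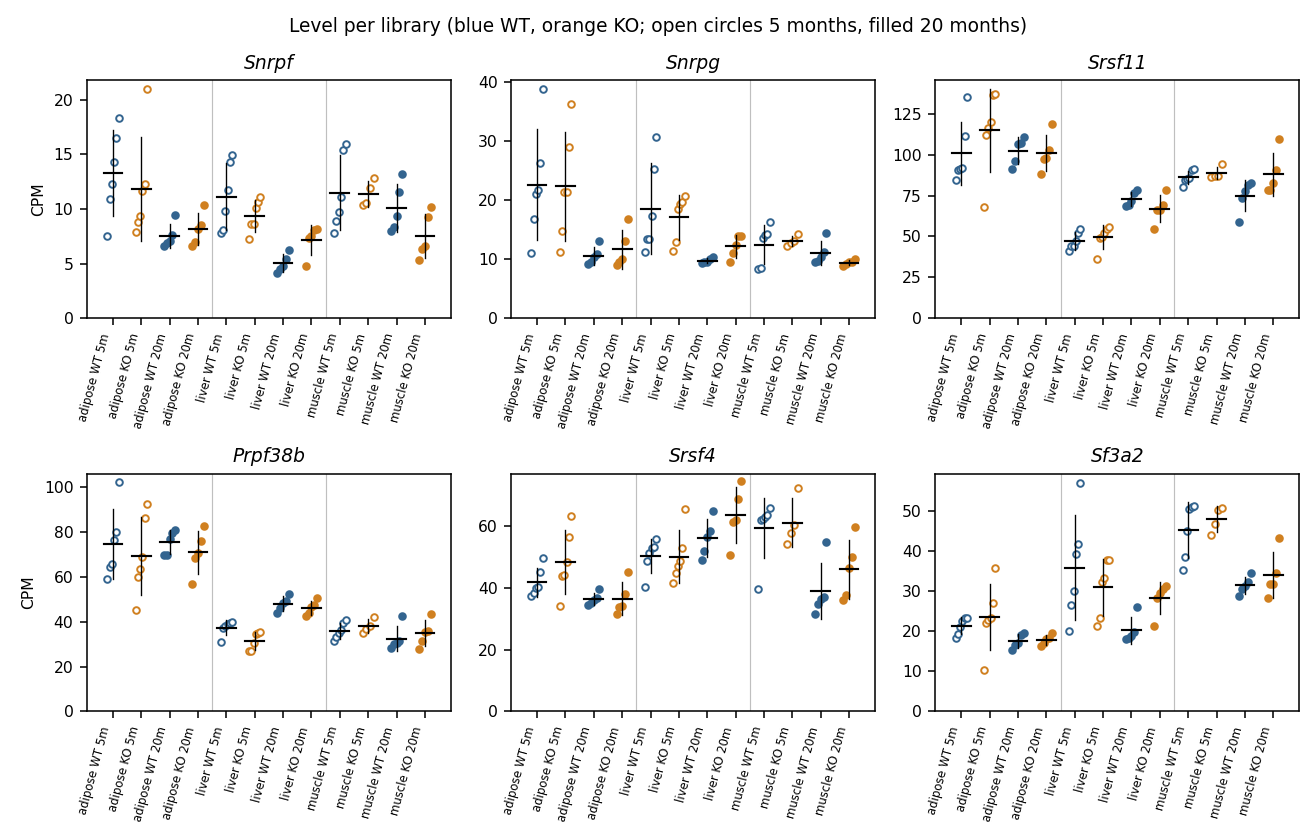
Each circle is 1 library, its height the CPM of the gene named over the panel; columns are the 12 groups, the horizontal bar is the group mean and the vertical line 1 SD in either direction. Srsf11 and Prpf38b are higher at 20 than at 5 months in liver of both genotypes, and Snrpf is lower at 20 months in WT liver, at 4.16 to 6.23 CPM.

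Among the members that fell in WT liver, Snrpf went from 7.79 to 14.9 CPM (median 10.8) to 4.16, 4.51, 4.80, 5.42 and 6.23 CPM, with no overlap (log2 fold change -0.98, SE 0.17, limma adjusted p = 0.00136). That call held in 11 of 11 fits without 1 library and without the Xist libraries (-0.84, adjusted p = 0.0160). Snrpg went from 11.3 to 30.7 CPM (median 15.4) to 9.42, 9.54, 9.60, 9.95 and 10.3, also with no overlap (-0.77, SE 0.21, adjusted p = 0.0254). Sf3a2, a subunit of SF3A, went from 20.2 to 56.9 CPM (median 34.6) to 18.04, 18.2, 18.7, 19.8 and 26.1, where only W18L01 reached into the young range (-0.73, SE 0.20, adjusted p = 0.0325). Snrpg and Sf3a2 were not called without the Xist libraries (-0.58 and -0.48) or when scaled to total reads (-0.56 and -0.52). The remaining members called lower, named after their values were seen, were Prpf6 (-0.55), Sf3b2 (-0.49) and Hnrnpul1 (-0.29). These 3 were not called without the Xist libraries, at -0.40, -0.34 and -0.26.

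Scaling mattered in liver. Scaled to total reads, 8 members were called, 7 higher and 1 lower, beside 10.16% of all genes (1105 of the 1313 higher), as the median of all genes moved from -0.01 to 0.17. The hnRNP median then was -0.01 with 9 of 20 higher, and the snRNP median -0.12 with 9 of 12 lower. edgeR and DESeq2, which scale the recovered reads their own way, gave hnRNP medians of -0.19 and -0.21, and limma without the Xist libraries -0.11. The SR median was 0.41, with 8 of 10 higher under both scalings. Without the Xist libraries 3 members were called (Srsf2, Srsf11 and Snrpf), beside 3.20% of all genes, and leaving out 1 library gave 3 (without W18L04) to 16 (without W5L5277).

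In WT muscle 9 of 64 members were called, 2 higher and 7 lower, where 18.6% of all genes were called (10.9% higher, 7.68% lower). Srsf5 was at 112 to 259 CPM at 5 months (median 191) and at 89.3, 96.8, 101, 112 and 137 in the old libraries (log2 fold change -0.70, SE 0.20, limma adjusted p = 0.0231). Srsf4, another SR protein, went from 39.8 to 65.8 CPM (median 62.8) to 31.8, 34.8, 36.6, 37.2 and 54.9 (-0.60, SE 0.16, adjusted p = 0.0144). Sf3b3, a scaffold subunit of SF3B, went from 36.8 to 56.5 CPM (median 45.03) to 26.2, 26.9, 26.9, 34.3 and 41.1 (-0.54, SE 0.14, adjusted p = 0.0143). In each case most old libraries lay below every young one and 1 or more overlapped.

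The 4 others that fell in WT muscle, named after their values were seen, were 3 further SF3 genes and Hnrnpl. Sf3a2 went from 35.2 to 51.2 CPM (median 47.6) to 28.9, 30.6, 31.2, 32.2 and 34.5, with no overlap (-0.50, SE 0.11, adjusted p = 0.00810). Sf3b2 went from 118 to 142 CPM (median 125) to 99.6, 103, 105, 111 and 115, also with no overlap, though the change was small (-0.24, SE 0.07, adjusted p = 0.0305). Sf3b4 and Hnrnpl, which binds CA-rich RNA, fell by 0.45 and 0.36 on the log2 scale. So 4 of 9 SF3 genes fell in muscle, and Sf3b1, with 217 to 539 CPM (median 375) and then 183, 189, 194, 209 and 396, did not pass (-0.71, SE 0.26, adjusted p = 0.0594). Without W18S42, the old WT library with hepatocyte transcripts, 2 of 9 SF3 genes were called lower, and the family median was -0.22.

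Prpf18, a factor of the second splicing step, rose in WT muscle from 48.4 to 58.4 CPM (median 55.5) to 57.02, 57.04, 65.4, 75.2 and 76.7 (log2 fold change 0.27, SE 0.09, limma adjusted p = 0.0468). Its groups overlapped. Without the Xist libraries 0 members were called in WT muscle, at values of 0.20 for Prpf18, -0.63 for Srsf5, -0.56 for Srsf4 and -0.43 for Sf3b3, with 12 members at an unadjusted p under 0.05, while 937 of all genes tested were called (7.08%). Leaving out 1 library gave 4 (without W18S66) to 15 members (without W5S5277), and 8 without W5S5299. Scaled to total reads 9 were called, 4 higher and 5 lower, beside 19.4% of all genes.

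Ageing in KO mice called fewer members in liver and muscle, a difference that the interaction above, with 0 calls, did not resolve. In KO adipose tissue 3 members were called (14.2% of all genes, 10.5% higher and 3.75% lower). Snrpg fell from 11.2 to 36.4 CPM (median 21.5) to 8.96, 9.46, 10.01, 13.1 and 16.7 (-0.82, SE 0.27, limma adjusted p = 0.0468). Snrpn rose from 2.35 to 10.9 CPM (median 3.88) to 6.82, 6.94, 8.02, 11.1 and 14.8 (0.93, SE 0.30, adjusted p = 0.0438), and Prpf18 from 15.8 to 29.1 (median 22.9) to 26.3, 28.4, 29.01, 30.4 and 31.3 (0.36, SE 0.11, adjusted p = 0.0393). All of these groups overlapped. edgeR called 9 members and DESeq2 17, of which 9 and 16 were lower, beside 15.8% and 23.1% of all genes. 6 were called without the Xist libraries, beside 21.2% of all genes, and Prpf18 was not (0.25, adjusted p = 0.0772). Without the libraries with epididymis transcripts 15 were called, all lower, beside 17.9% of all genes, and Snrpn and Prpf18 were not among them. Leaving out 1 library gave 0 (4 of 11 fits, K18F26 among them) to 14 members (without K5F5218).

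In KO liver 3 members were called, all higher (2.99% of all genes, 1.68% higher). Prpf38b went from 26.8 to 35.6 CPM (median 32.4) to 42.6, 44.0, 46.8, 47.7 and 50.6, with no overlap (log2 fold change 0.55, SE 0.10, limma adjusted p = 0.00359), and was called in 11 of 11 fits without 1 library. Srsf11 went from 36.1 to 55.9 CPM (median 50.8) to 54.7, 66.5, 66.5, 69.1 and 78.6 (0.43, SE 0.11, adjusted p = 0.0374). Prpf4b went from 31.3 to 51.5 CPM (median 40.5) to 52.3, 52.7, 54.4, 54.7 and 56.8, with no overlap (0.43, SE 0.11, adjusted p = 0.0395). All 3 were also called higher in WT liver, from libraries of other mice, and all 3 were called in KO liver without the Xist libraries. In WT liver without the Xist libraries Srsf11 stayed called, and Prpf38b and Prpf4b did not. In KO liver Srsf11 was called in 5 of 11 fits without 1 library, and Prpf4b in 2 of 11. Prpf4b was not called there without the filter on low values. The macrophage markers, 6 genes, summed to 296 to 458 CPM at 5 months and 193.5 to 257.5 at 20 months in KO liver, and their part was not tested. Leaving out 1 library gave 1 (6 of 11 fits, K18L06 among them) to 7 members (without K5L5218).

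In KO muscle 2 members were called (5.57% of all genes, 3.60% higher and 1.96% lower). Sf3a2, which was also called in WT muscle, fell from 44.0, 46.6, 50.3 and 50.7 CPM to 28.2, 31.7, 31.8, 34.6 and 43.3 (log2 fold change -0.50, SE 0.12, limma adjusted p = 0.0267). Its groups did not overlap. Without the Xist libraries, which leaves 2 young KO muscle libraries, 0 members were called by limma (Sf3a2 at -0.57) and 12 had an unadjusted p under 0.05. The shares of all genes in that fit are not given here, so these counts are not read as results about the members. Leaving out 1 library gave 0 (3 of 9 fits, K18S64 among them) to 2.

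Whether WT ageing differed between tissues was tested directly, in 1 fit over the 6 WT groups. Adipose tissue and muscle differed in 7 of 64 members, where 15.9% of all genes were called (8.24% more positive in adipose tissue, 7.63% more negative). Of the 7, 1 was more positive in adipose tissue and 6 more negative. Sf3b6 went from 13.5 to 26.6 CPM (median 19.2) to 10.7, 11.0, 11.4, 12.6 and 13.02 in adipose tissue, and from 7.49 to 10.7 (median 9.25) to 8.19, 9.19, 11.2, 12.8 and 19.8 in muscle. The difference of the 2 log2 fold changes was -0.96 (SE 0.23, limma adjusted p = 0.00643). Snrpe, an Sm ring protein, and Snrpb2, which encodes the U2 B″ protein, differed in the same way (-0.91, SE 0.30, and -0.87, SE 0.22, adjusted p = 0.0366 and 0.00781). Sf3b1 differed the other way, at 136 to 194 CPM (median 152) and then 192, 197, 202, 204 and 213 in adipose tissue, with a difference from muscle of 1.05 (SE 0.27, adjusted p = 0.00947). Without W5S5299, 5 members were called, and leaving out 1 library at a time gave 4 (4 of 22 fits, W18F25 among them) to 12 (without W5F5299). Snrpe was called in 12 of these 22 fits and the other 3 genes in all 22. A fit without the Xist libraries, chosen after seeing the data, called 4 beside 8.72% of all genes, and Snrpe was not (-0.70, adjusted p = 0.0926).

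Liver and muscle differed in the ageing of 4 members, each more positive in liver, where 3.26% of all genes were called and 1.58% in that direction. Srsf11 rose in liver, as given above, and had 80.05 to 91.2 CPM (median 85.4) and then 59.1, 73.8, 77.9, 81.8 and 82.6 in muscle, a difference of 0.83 (SE 0.15, limma adjusted p = 0.00168). Srsf4, which fell in muscle, had 40.3 to 55.8 CPM (median 52.2) and then 49.1, 52.0, 56.6, 58.5 and 65.2 in liver (0.76, SE 0.18, adjusted p = 0.0144). Prpf39 went from 12.6 to 20.8 CPM (median 15.4) to 18.6, 23.2, 24.2, 25.8 and 26.4 in liver and from 26.9 to 33.3 (median 30.3) to 23.9, 23.9, 24.7, 30.9 and 32.1 in muscle (0.72, SE 0.18, adjusted p = 0.0202). Srsf2 was the other member. Adipose tissue and liver differed in 1 member, Srsf11, where 6.36% of all genes were called and 2.30% in its direction. It stayed at 84.8 to 136 CPM (median 91.6) and 91.6, 96.2, 107, 107 and 111 in adipose tissue (-0.59, SE 0.15, adjusted p = 0.0144). Srsf11 was called in all 22 fits that left out 1 library, in both of its comparisons, while the count for adipose tissue and liver reached 3 without W5L5042. In the same fit without the Xist libraries Srsf11 was called in both, Srsf4 (0.74), Prpf39 (0.64) and Srsf2 (0.50) were not, and the counts were 1 for liver and muscle (2.08% of all genes) and 2 for adipose tissue and liver (4.86%).

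The wider splicing machinery was described with a list of 127 further genes, of which 122 to 125 were tested within a tissue. In WT ageing 3 rose and 5 fell in adipose tissue, 3 rose and 7 fell in liver, and 7 rose and 12 fell in muscle. Those called were 6.4%, 8.2% and 15.3% of the list in the 3 tissues, beside 10.8%, 7.19% and 18.6% of all genes, with medians of -0.17, -0.14 and -0.04. The U1, U2 and tri-snRNP proteins and helicases of the list had medians of -0.28 in adipose tissue (29 of 35 lower) and -0.24 in liver (31 of 35 lower), and -0.08 in muscle. U2af1, which reads the 3′ splice site, fell from 31.9 to 16.4 CPM on average in adipose tissue (log2 fold change -0.86, SE 0.27, limma adjusted p = 0.0423), and Mbnl2, a tissue-specific splicing regulator, rose from 102 to 195 CPM (0.93, SE 0.18, adjusted p = 0.00299). In liver Lsm7, of the ring on U6 RNA, went from 17.4 down to 10.1 CPM (-0.66, SE 0.17, adjusted p = 0.0232), and Tia1, which binds U-rich intron starts, rose from 5.04 to 10.01 CPM (0.87, SE 0.15, adjusted p = 0.00128). Tia1 also rose in muscle, from 17.1 to 26.3 CPM (0.63, SE 0.16, adjusted p = 0.0138), and Nova1, a splicing regulator known from neurons, went from 10.7 down to 5.49 CPM (-0.76, SE 0.23, adjusted p = 0.0276). Without the Xist libraries U2af1 (-0.57), Lsm7 (-0.45) and Tia1 in muscle (0.52) were not called, and Mbnl2, Tia1 in liver and Nova1 were.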

How the data were processed

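Per the file headers, the deposited table was made by the authors with the CLC Genomics software and holds 36333 entries, 64 library columns and values named CPM. Column sums of 0.529 to 1.64 M show a read signal scaled per library by the authors. All values were whole multiples of 1 read (tolerance 0.02), so read counts could be recovered (median 19.6 M per library). Depth limits the precision through counting error, which weighs most on members with few reads. Snrpn had 27 reads and Snrpf 61 in their lowest libraries. For such members counting error need not be small beside the spread of libraries. Per the labels' protocols, libraries were strand-specific and made from poly-A RNA. Per the submitters' processing notes the build is GRCm38.p6, also named mm10. The counting rules are not given in the sources used here, so genes with close copies are less certain.

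Symbols came from RefSeq (GRCm38.p6), and mRNA lengths are medians over protein-coding transcripts of GENCODE. The filter kept genes above 1 CPM in no fewer libraries than the smallest group of the fit holds (14286 genes in adipose tissue, 12924 in liver, 13237 in muscle). Values entered limma 3.58.1 (R 4.3.3) on the log2(CPM + 1) scale: 1 mean per group, variance trend, Benjamini-Hochberg adjustment. Tissue and ageing-by-tissue fits used all WT groups concerned (14087 and 15229 genes). The alternatives were a pseudocount of 0.1, no filter, total-read scaling, edgeR 4.0.16 and DESeq2 1.42.0 on recovered reads, libraries left out, and a block on library number. The limma script was tested on simulated data. Members and lists were chosen with earlier results of these data known. Named genes are, per comparison, the 3 called members with the largest rise and fall (or the smallest p where none was called), the highest member of each family, those next to the 1 CPM threshold, and the listed splicing genes with the largest rise and fall in WT ageing. 1 member is counted but not reported by name here. Libraries of a group count as replicates, and p-values measure the spread between these samples. No pair of libraries agreed within sampling noise (lowest chi-square per degree of freedom 13.5).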

Additional observations from a re-analysis of the deposited data

Results flagged for a closer look

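Among the 82 sets of libraries checked (1 gene in 1 group), 8 held a library far from the others of its group, and chance flags about 1 in 20 groups. Snrpn was at 10.9 CPM in K5F5118, against 2.35 to 4.36 in the other young KO adipose libraries. Prpf38b was at 30.8 CPM in W5L5005, against 37.3 to 39.7 in the other young WT livers, and Srsf11 at 36.1 in K5L5218, against 49.3 to 55.9 in the other young KO livers. Among old livers, Srsf9 was at 24.03 CPM in the KO library K18L06, against 36.6 to 40.7, and Sf3a2 at 26.1 in the WT library W18L01, against 18.04 to 19.8. In WT muscle, Srsf4 was at 39.8 CPM in the young library W5S5277, against 62.1 to 65.8, and at 54.9 in the old library W18S41, against 31.8 to 37.2. Srsf9 was at 11.7 CPM in the young WT muscle library W5S5042, against 5.60 to 6.97.

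WT ageing differed between tissues by the test of the difference for 7 named members. Between adipose tissue and liver the difference in log2 fold change was -0.59 for Srsf11. Between adipose tissue and muscle it was 1.05 for Sf3b1, -0.96 for Sf3b6, -0.91 for Snrpe and -0.87 for Snrpb2. Between liver and muscle it was 0.83 for Srsf11, 0.76 for Srsf4 and 0.72 for Prpf39. Snrpe, Srsf4 and Prpf39 were not called without the Xist libraries.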

How the results depend on the processing

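Of the counts of called members recomputed under alternatives, 355 stayed within 1.5 times the count reported and 72 did not. The counts below describe how the results move with the setting. Where shares of all genes are given, they stand with the comparisons above. For ageing in adipose tissue (3 members in each genotype), WT gave 1 and KO 1 with no filter, 7 and 6 scaled to total reads, 8 and 9 with edgeR, 13 and 17 with DESeq2, 0 and 6 without the Xist libraries, and 15 and 15 without the libraries with epididymis transcripts. Leaving out 1 library gave 0 to 11 in WT and 0 to 14 in KO. For KO against WT in young adipose tissue the count was 1 without the Xist libraries and 0 to 1 with 1 library left out. WT liver ageing gave 3 without the Xist libraries and 3 to 16 with 1 library left out, and KO liver ageing 6 scaled to total reads and 1 to 7. WT muscle ageing gave 0 without the Xist libraries and 4 to 15 with 1 library left out, and KO muscle ageing 1 scaled to total reads, 0 without the Xist libraries and 0 to 2. Between young WT tissues, total-read scaling gave 61 members for adipose tissue against liver and 55 against muscle, where leaving out 1 library gave 23 to 26 and 22 to 30, and 28 to 34 for liver against muscle. Under edgeR the split was 9 higher and 17 lower, and 8 and 17, in the 2 adipose comparisons. For ageing between tissues, adipose tissue against liver gave 2 scaled to total reads, 2 with DESeq2 and 1 to 3 with 1 library left out, adipose tissue against muscle 4 to 12, and liver against muscle 3 to 6. The 3 gave 2, 4 and 1 without the Xist libraries, a setting chosen here after seeing the data. Of the named genes, Prpf8 and Snrpd3 changed sign, to 0.34 and 0.23, in adipose tissue against liver scaled to total reads. The cause of these shifts was not tested.

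With the library number as a replicate block, the tissue fits called 26, 31 and 34 members and the ageing fits 1, 8 and 4. The shares of all genes under that block are not given here, so these counts are not read as results about the members. The numbers are not stated to mark animals: 11 of 14 pairs of libraries that share a number correlated over 0.1 (r from -0.07 to 0.32), and 17 of 28 libraries correlated best with their own number. No paired analysis was possible within a tissue because numbers do not recur across ages or genotypes.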
